A study of Mus musculus with 2 samples.

Results

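A set of 9 genes of the Notch signalling pathway was followed through the epithelium of the adult mouse mammary gland: the receptors Notch1, Notch2 and Notch3, the ligands Jag1, Jag2 and Dll1, and the target genes Hes1, Hey1 and Heyl. They were chosen by gene symbol as the named members of the pathway's 3 roles, and are 9 of the 27998 genes counted. The series held 2 single-cell libraries made on the 10X Genomics Chromium platform, which counts messenger RNA molecules from their 3′ ends. Each library pooled cells of 4 untreated FVB/NJ mice at 10 weeks of age, so the groups shared strain, age and lack of treatment and differed in the cells taken. One was total epithelium (Lin-CD24+ cells) and the other was sorted basal cells (Lin-CD29hiCD24+). For the lineage antigens that Lin- cells lack, the study's methods list antibodies to CD31 (endothelium), CD45 (leukocytes) and TER-119 (red blood cells). There was 1 library per group, so no difference between groups or cell classes could be tested, and the intervals given are 95% intervals that cover counting error only.

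Notch receptors sit in the plasma membrane and are activated by ligands on a neighbouring cell. Ligand binding exposes the receptor to ADAM proteases and then to gamma-secretase, which frees the intracellular domain to enter the nucleus, bind Rbpj and Mastermind-like coactivators and switch on genes of the Hes and Hey families of transcriptional repressors. In the mammary gland the pathway is known for its part in luminal cell fate.

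The total epithelium library was divided by the counts of marker genes in each cell. Cells with 10 or more counts of Krt5, Krt14 and Acta2 together were called basal (1280 cells, 2651803 counts), those with 10 or more counts of Prlr, Stc2 and Gpx3 were called mature luminal (ML, 1133 cells, 4132895 counts), and other cells with 3 or more counts of Krt8, Krt18 and Krt19 were called luminal progenitor (LP, 766 cells, 2158548 counts). A further 26 cells passed both the basal and the ML sums and 97 passed none, and both were left out of the comparisons. Basal, LP and ML markers that the rule did not use had their highest levels where the names would place them, but were not confined there. Tagln, a smooth muscle gene, had a count in 98.4% of basal cells but in only 6.27% of LP and 2.03% of ML cells. The milk protein gene Csn3 had one in 80.3% of LP cells, 4.92% of basal and 15.0% of ML cells, and Areg, a growth factor of hormone-sensing cells, in 76.8% of ML cells, 14.2% of LP and 4.14% of basal cells. Less confined was the ML marker Ly6d, with a count in 86.6% of ML and 26.2% of LP cells. The LP marker Trf had one in 89.9% of LP and 55.3% of basal cells. The LP class takes cells that the other sums leave, and 243 of its 766 cells held fewer than 10 counts over 5 LP markers (Csn3, Wfdc18, Elf5, Cd14 and Plb1). Depth differed, with medians of 1820 counts per basal cell, 2483.5 per LP cell and 3403 per ML cell. Shares of cells with a count are therefore also given at equal depth, as the value calculated for cells of at least 1000 counts when each is reduced to 1000.

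Levels are counts summed over the cells of a class and expressed as CPM (counts per 1000000 counts of that class). Of the 9 members, 6 had the 30 or more counts over the 3 classes that were required before a ratio was counted: Notch1, Notch3, Jag1, Dll1, Hes1 and Hey1. The other 3, Notch2, Jag2 and Heyl, held 4, 19 and 26 counts in the 3 classes. Differences of 2-fold or more were common among genes in general, and the members' counts are read against that background. Between basal and LP cells, 6 of the 6 members differed by 2-fold or more, beside 34.8% of 10065 genes, with Jag1 and Dll1 higher in basal cells and Notch1, Notch3, Hes1 and Hey1 higher in LP cells. Of all genes, 21% were at least 2-fold higher in basal cells and 13.7% in LP cells. Between basal and ML cells 5 of 6 did, beside 39.1% of genes: Jag1 and Dll1 were again higher in basal cells and Notch1, Notch3 and Hes1 higher in ML cells, against backgrounds of 19.5% and 19.6% in those directions. Between LP and ML cells 4 of 6 did, beside 28.6% of genes, with Notch1, Dll1 and Hey1 higher in LP cells (background 11.5%) and Jag1 higher in ML cells (background 17.1%). Dll1 and Jag1 reached the minimum of 30 counts only with their basal counts. In LP and ML cells Dll1 held 21 and 6 counts and Jag1 1 and 11, so nothing is read from their place in this tally. The median log2 ratio of all genes was 0.19 for basal over LP, -0.05 for basal over ML and -0.26 for LP over ML, and the same members passed 2-fold when ratios were centred on those medians.

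**Figure D1:**
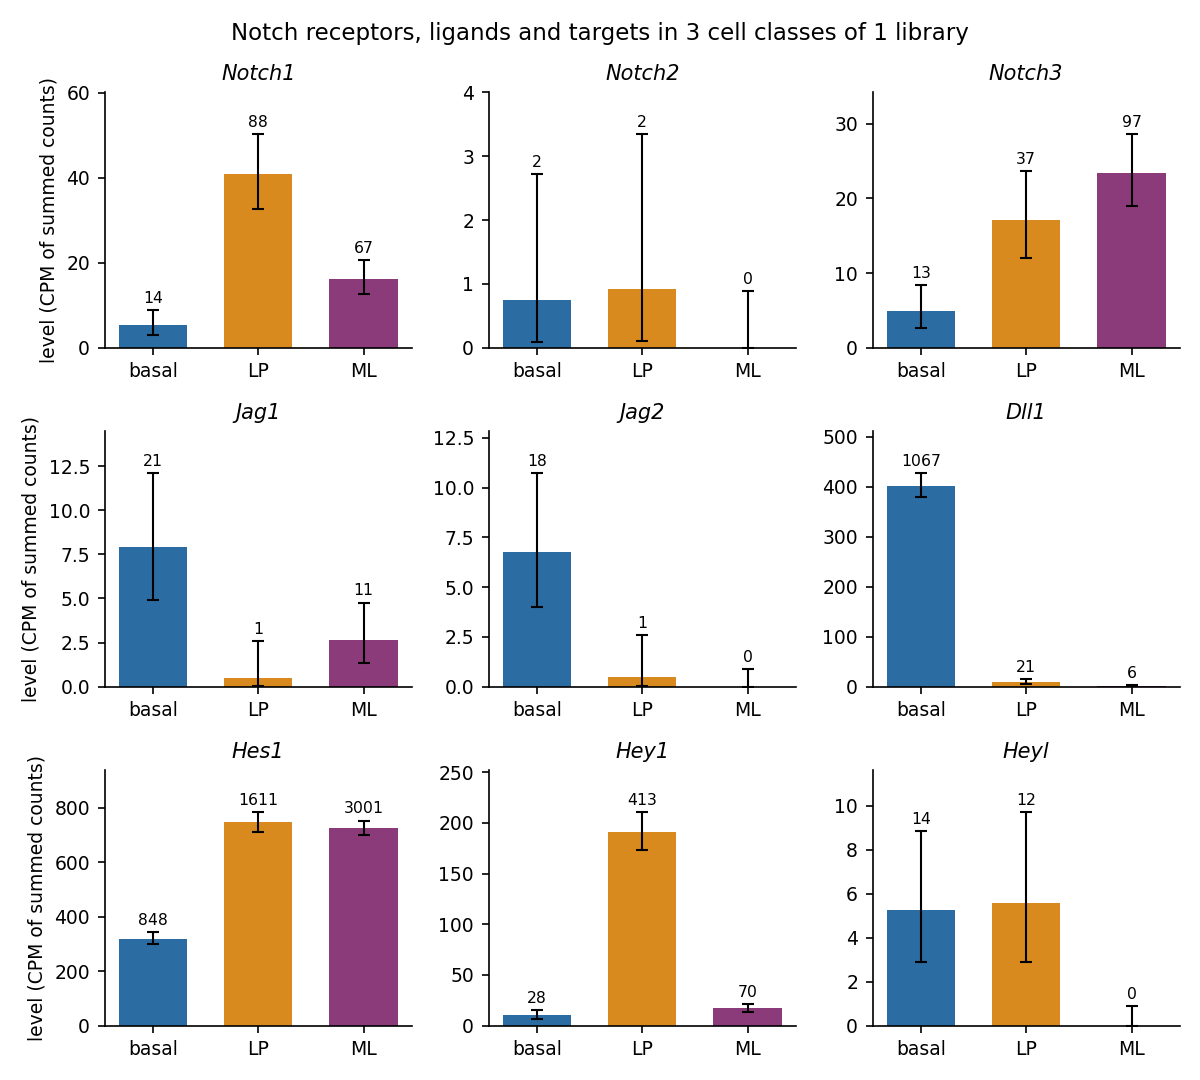
Level of each of the 9 genes in basal, LP and ML cells of the total epithelium library, as CPM of counts summed over the class on a linear axis that starts at 0 in each panel. Bars are the summed level, error bars are exact Poisson 95% intervals for counting error, and the number over each bar is its counts, from 0 for Notch2, Jag2 and Heyl in ML cells to 3001 for Hes1 in ML cells.

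Notch1, a receptor, was highest in LP cells. It had 14 counts in basal cells (5.28 CPM, interval 2.89 to 8.86), 88 in LP cells (40.8 CPM, 32.7 to 50.2) and 67 in ML cells (16.2 CPM, 12.6 to 20.6), and the 3 intervals did not overlap. LP cells were 7.72-fold above basal cells (4.37 to 14.7) and 2.51-fold above ML cells (1.81 to 3.51). ML cells were 3.07-fold above basal cells (1.71 to 5.92). A count was found in 1.02% of basal cells, 9.27% of LP cells and 5.30% of ML cells, or 0.548%, 3.86% and 1.79% at 1000 counts per cell, so the order of the classes was the same at equal depth.

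Notch3, the second receptor with enough counts, had the luminal side in common with Notch1 but not the excess in LP cells. Its counts were 13 in basal cells (4.90 CPM, 2.61 to 8.38), 37 in LP cells (17.1 CPM, 12.1 to 23.6) and 97 in ML cells (23.5 CPM, 19.0 to 28.6). The luminal classes were above basal cells by 3.50-fold (LP, 1.82 to 7.17) and 4.79-fold (ML, 2.67 to 9.31). Over 10 alternative ways of forming classes, scaling or leaving out cells, the log2 ratio of basal to LP cells, -1.81, ranged from -2.83 to -1.16. ML cells were 1.37-fold above LP cells, with an interval of 0.929 to 2.06 that includes no difference. Detection was sparse, at 0.859% of basal cells, 4.44% of LP cells and 7.94% of ML cells.

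Notch2 could not be placed. It had 2 counts in basal cells, 2 in LP cells and 0 in ML cells, and the last allows a share of up to 0.265% of ML cells with a count. At this depth its absence from the epithelium cannot be told from a low level.

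Dll1, a ligand of the Delta type, was the member with the widest spread between classes. It had 1067 counts in basal cells (402 CPM, 379 to 427), 21 in LP cells (9.73 CPM, 6.02 to 14.9) and 6 in ML cells (1.45 CPM, 0.533 to 3.16). The basal level was 41.4-fold that of LP cells (26.9 to 67.1) and 277-fold that of ML cells (127 to 757). A count was found in 42.1% of basal cells (39.4 to 44.9), or 28.3% at 1000 counts, beside 2.22% of LP and 0.530% of ML cells, and the fullest basal cell held 16 counts. Free RNA released by broken cells can give a low level in any class. The 7 basal markers that the class rule did not use stood in LP cells at 0.260% to 8.64% of their basal level (median 0.825%) and in ML cells at 0.119% to 2.07% (median 0.363%). Dll1 stood at 0.361% in ML cells (0.132 to 0.788), near that median. In LP cells Dll1 stood at 2.42% (1.49 to 3.72), below Oxtr at 8.64% but above the values of the other markers, of which Sparc was the highest at 1.08%. The interval of 1 of these, Trp63, was 0.0152 to 3.41 on 1 LP count and overlapped that of Dll1. The part of free RNA in the 6.70-fold step from ML to LP cells (2.62 to 20.3) was not tested.

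Jag1, a ligand of the Serrate type, leaned the same way on far fewer counts. It had 21 counts in basal cells (7.92 CPM, 4.90 to 12.1), 1 in LP cells (0.463 CPM) and 11 in ML cells (2.66 CPM, 1.33 to 4.76). Basal cells were 2.98-fold above ML cells (1.37 to 6.83) and 17.1-fold above LP cells, where a single count gives an interval of 2.75 to 707. When CPM was averaged over cells in place of summing counts, the log2 ratio of basal to ML cells was 0.93, just under 2-fold. The ratio of ML to LP cells was 5.75 with an interval of 0.835 to 247, which includes no difference. Jag2, its closest relative, had 18 counts in basal cells (6.79 CPM, 4.02 to 10.7), 1 in LP cells and 0 in ML cells. Against a floor of 3 counts in ML cells, Jag2 was at least 9.35-fold higher in basal cells, or 6.85-fold at the lower limit once counting error in the basal counts is taken in. All 3 ligands thus had their highest level in basal cells, and both measured receptors had their lowest there.

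Promoter sequence was looked up for the members in the RefSeq promoter table (GRCm38.p6), where 6 of the 9 had an entry and Hes1, Hey1 and Heyl had none. The 250 bases before the annotated start are printed for the pair of entries that hold no base of an exon of their own gene: that of the basal ligand Dll1, at chr17:15376933-15377182 on the minus strand, and that of the luminal receptor Notch3, at chr17:32166891-32167140 on the minus strand. Capitals mark matches to CACGNG on either strand (CNCGTG on the other), the letters bound by Hes and Hey repressors.
Dll1: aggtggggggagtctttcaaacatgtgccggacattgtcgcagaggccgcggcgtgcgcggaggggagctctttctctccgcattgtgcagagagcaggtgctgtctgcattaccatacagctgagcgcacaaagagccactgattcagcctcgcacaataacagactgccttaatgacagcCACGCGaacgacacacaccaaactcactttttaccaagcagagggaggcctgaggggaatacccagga
Notch3: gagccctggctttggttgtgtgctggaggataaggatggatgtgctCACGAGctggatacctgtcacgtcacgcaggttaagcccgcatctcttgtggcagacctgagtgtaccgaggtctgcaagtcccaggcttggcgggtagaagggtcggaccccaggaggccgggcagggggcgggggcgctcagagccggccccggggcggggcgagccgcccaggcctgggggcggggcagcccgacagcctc
Each of these windows held 1 match, 68 bases before the start in Dll1 and 204 bases before it in Notch3. Over all entries of the members, 5 of 7 windows held a match, beside 23.5% of 32851 promoters in the table. The core letters of an Rbpj site, TGGGAA or TTCCCA on the other strand, were in 0 of the 7 windows and in 21.6% of all promoters. The 7 windows were 56% to 87.2% G and C, above the median of 52.4% for all promoters, so neither share is set against promoters of like composition. A match is a description of the letters only, and says nothing of binding in these cells. The window of Dll1 also lies over an exon of A930024N18Rik, a gene on the opposite strand. In the GENCODE annotation of GRCm38, Dll1 spans chr17:15367354-15376872 and Notch3 chr17:32120820-32166852, both protein coding and on the minus strand. Notch1 spans chr2:26457903-26516663, Jag1 chr2:137081456-137116644, Jag2 chr12:112907819-112929776 and Hey1 chr3:8663359-8667256 on the minus strand. Notch2 spans chr3:98013527-98150361, Hes1 chr16:30064384-30067796 and Heyl chr4:123233556-123249875 on the plus strand.

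Hey1, a target gene that encodes a basic helix-loop-helix repressor, was highest in LP cells by a wide margin. Its counts were 28 in basal cells (10.6 CPM, 7.02 to 15.3), 413 in LP cells (191 CPM, 173 to 211) and 70 in ML cells (16.9 CPM, 13.2 to 21.4). LP cells were 18.1-fold above basal cells (12.4 to 27.6) and 11.3-fold above ML cells (8.75 to 14.8). It was detected in 24.8% of LP cells, against 1.48% of basal and 3.97% of ML cells, and in 13.2%, 0.683% and 1.18% at 1000 counts per cell. The ML level was 8.85% of the LP level, within the 8.28% to 14.6% at which 8 LP markers stood in ML cells. In basal cells Hey1 stood at 5.52% of its LP level (3.62 to 8.10), beside 1.07% to 5.33% for the same markers. Hey1 was thus within the range of the LP markers in ML cells, and in basal cells it could not be told from the upper end of that range. The part of free RNA in these low levels was not tested. Notch1 did not follow the LP markers, at 39.8% of its LP level in ML cells (28.5 to 55.3) and 12.9% in basal cells (6.80 to 22.9).

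**Figure D2:**
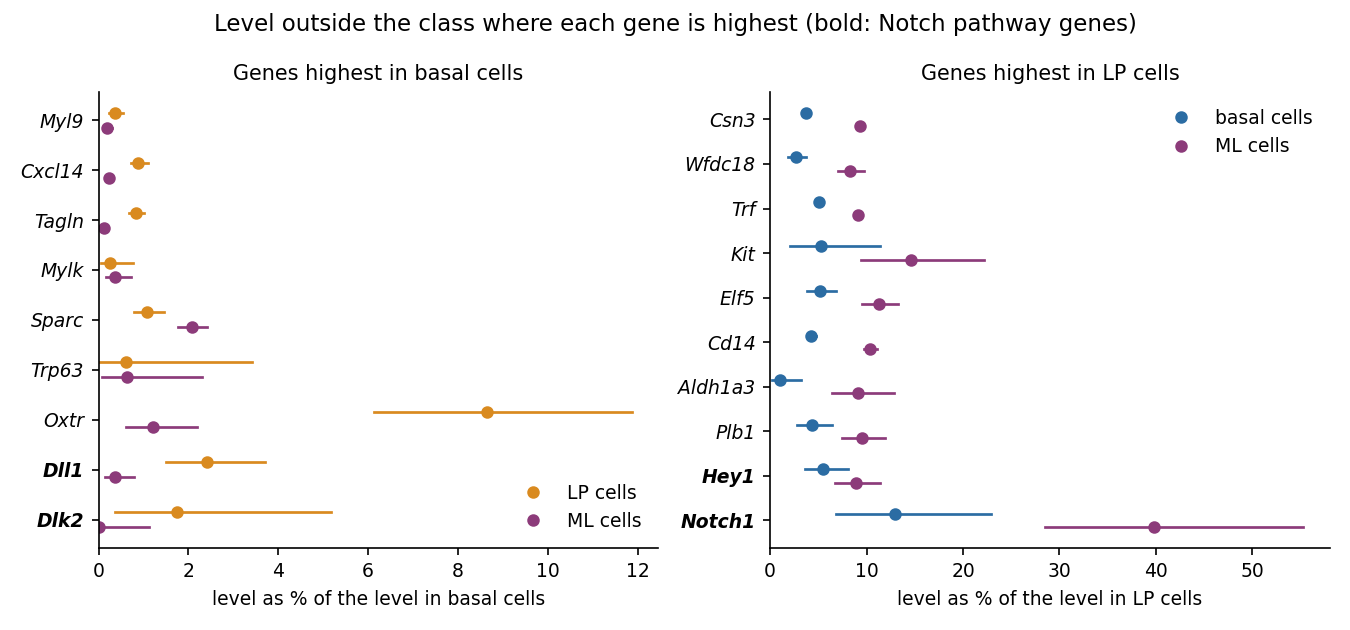
Level outside the class where a gene was highest, as a percentage of the level in that class, for genes highest in basal cells (left) and in LP cells (right), on linear axes. Points are ratios of CPM, lines are 95% counting intervals, and Notch pathway genes are in bold; Hey1 lies among or next to the LP markers, and Notch1, at 39.8% in ML cells and 12.9% in basal cells, lies to their right.

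Some ML cells carried LP markers, and Hey1 in the ML class was concentrated in them. With a threshold of 10 counts over 5 LP markers, chosen after values were seen, 108 ML cells held 51 of the 70 Hey1 counts (81.7 CPM, 60.8 to 107), and the other 1025 held 19 (5.42 CPM, 3.26 to 8.46). The 108 cells were deeper, with a median of 5720.5 counts against 3244. The study describes a luminal intermediate cluster in adult total epithelium, with most genes at levels between those of LP and ML cells. Whether the 108 cells belong to that cluster or are pairs of cells captured together was not tested. Notch1 was also higher in the 108 cells, at 32.0 CPM (19.6 to 49.5) against 13.4 CPM (9.84 to 17.8) in the rest. The intervals for Notch3 overlapped, at 17.6 CPM (8.80 to 31.5) in the 108 cells and 24.5 CPM (19.6 to 30.3) in the rest. Within the LP class, Hey1 was 210 CPM (189 to 233) in the 523 cells at or above the same threshold. It was 120 CPM (89.8 to 156) in the 243 LP cells below it, whose median depth was 1599 counts against 2868.

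Hes1, a widely used target gene of the pathway, was the only member found in a large share of cells of every class. It had 848 counts in basal cells (320 CPM, 299 to 342), 1611 in LP cells (746 CPM, 710 to 784) and 3001 in ML cells (726 CPM, 700 to 753). LP cells were 2.33-fold (2.15 to 2.54) and ML cells 2.27-fold (2.10 to 2.45) above basal cells. LP and ML cells differed by 1.03-fold (0.967 to 1.09), so Hes1, unlike Hey1, did not separate the luminal classes. A count was found in 28.7% of basal cells, 52.1% of LP cells and 61.9% of ML cells, and in 19.2%, 34.8% and 37.6% at 1000 counts. Much of the luminal total came from few cells: 35 LP cells and 80 ML cells with 10 or more Hes1 counts held 32.7% and 37.0% of the Hes1 counts of their class, and 7 such basal cells held 11.7%. That cut was not scaled to depth, which was greater in the luminal classes, so it does not compare the classes at equal depth.

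Heyl, the third target, had 14 counts in basal cells, 12 in LP cells and 0 in ML cells. Basal and LP levels, 5.28 and 5.56 CPM, could not be told apart, with a ratio of LP to basal of 1.05 (0.445 to 2.45). Against a floor of 3 counts in ML cells, Heyl was at least 7.27-fold higher in basal cells and at least 7.66-fold higher in LP cells, with lower limits of 5.17 and 5.32 for counting error. Jag2 and Heyl were both under the count minimum, so neither was counted among the differences.

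**Figure D3:**
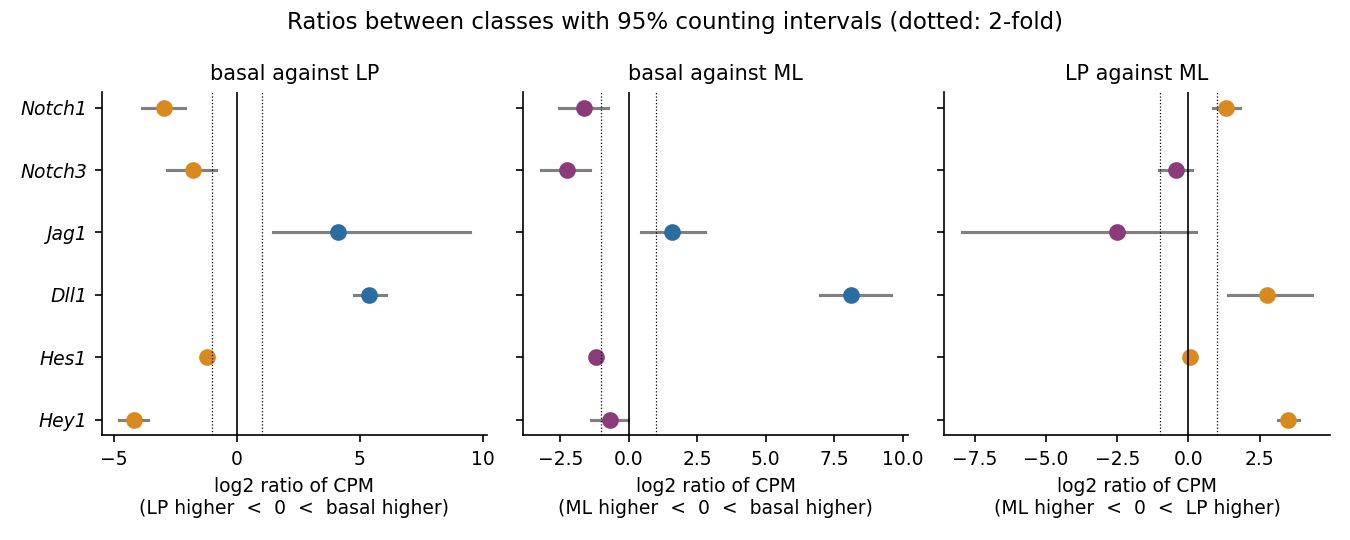
Log2 ratio of CPM for the 6 members with 30 or more counts, in each of the 3 comparisons of cell classes. Points are coloured by the class with the higher level, bars are exact 95% counting intervals, the solid line is no difference and dotted lines are 2-fold; Dll1 lies at 8.11 for basal over ML and Hes1 at 0.04 for LP over ML.

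Within LP cells, Hey1 was found more often in the cells with a Notch1 count, which were also deeper. Hey1 had a count in 40.8% of the 71 LP cells with a Notch1 count and in 23.2% of the 695 without, and at 1000 counts per cell in 20.2% and 12.4%. Median depth was 3119 counts in the first set and 2410 in the second. Hes1, divided in the same way by Notch1, was 679 CPM (580 to 789) in the cells with a Notch1 count and 755 CPM (717 to 795) in those without, and was found in 35.1% and 34.8% at 1000 counts per cell. Divided by Hey1, it was 596 CPM (539 to 658) in the 190 LP cells with a Hey1 count and 814 CPM (769 to 861) in the 576 without, although more of the former held a count, 55.8% against 50.9% (32.6% and 35.6% at 1000 counts). In basal cells, the 539 cells with a Dll1 count held 0 counts of Notch3, which allows a share of up to 0.557%, and the 741 without held 13, in 1.48% of cells. Notch1 was not lower in this way, with 6 counts in 1.11% of the cells with Dll1 and 8 counts in 0.945% of those without. Hes1 was 262 CPM (234 to 293) in the cells with Dll1 and 366 CPM (336 to 398) in those without. The share of basal cells with a Hes1 count differed less, at 27.1% (23.4 to 31.1) with Dll1 and 29.96% (26.7 to 33.4) without. Those intervals overlapped, and at 1000 counts per cell the shares were 17.6% and 20.4%. The fullest cell held 10 Hes1 counts with Dll1 and 27 without, and median depth was 2003 and 1694 counts. All these comparisons are co-occurrences within 1 library and have no replicate.

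The pathway was also set against the immediate-early genes (Fos, Fosb, Jun, Junb, Egr1, Atf3 and Ier2), which respond within minutes to stimuli such as tissue dissociation. Each class was divided at its median share of these genes. Hes1 was higher in the cells above the median in LP (1.33-fold, 1.21 to 1.47) and ML cells (1.202-fold, 1.12 to 1.29), and in basal cells the ratio was 1.11 (0.966 to 1.27). In ML cells, of like median depth on both sides (3405 and 3392 counts), this was not seen in the share of cells with a count, 59.5% above the median and 64.2% below, and the fullest cell held 43 Hes1 counts above it and 19 below. Notch1 in LP cells was 1.79-fold higher above the median (1.15 to 2.80). Hey1 in LP cells, at 0.834 (0.679 to 1.02), and Dll1 in basal cells, at 0.906 (0.802 to 1.02), had intervals that include no difference. The part of dissociation in these levels was not tested.

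Of 54 other genes of the pathway, listed by role but with earlier results of these data known, 38 had 30 or more counts. Between basal and LP cells 9 were at least 2-fold higher in basal and 3 in LP cells. Between basal and ML cells the numbers were 9 and 10, and between LP and ML cells 4 and 8. These are 12, 19 and 12 of 38 genes against the backgrounds of 34.8%, 39.1% and 28.6% given above, and nothing is read from them about the wider list.

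Among the other ligands, Dlk2, a non-canonical relative of the Delta family, shared the pattern of Dll1. It had 211 counts in basal cells (79.6 CPM, 69.2 to 91.1), 3 in LP cells and 0 in ML cells. Basal cells were 57.3-fold above LP cells (19.3 to 280, on 3 counts) and, with ML cells at the floor of 3 counts, at least 109.6-fold above ML cells (lower limit 88.4). Enzymes that place sugars on Notch receptors differed too. Poglut1, an O-glucosyltransferase, was 56.9 CPM in basal cells, above 22.7 in ML and 8.34 in LP cells. Lfng, a Fringe enzyme that sets which ligands a receptor answers, was 28.3 CPM in basal cells (22.2 to 35.5), 2.32 in LP cells (0.752 to 5.41) and 15.0 in ML cells (11.5 to 19.2). LP cells, where Notch1 and Hey1 were highest, thus had the least Lfng, 12.2-fold below basal cells (5.01 to 38.7) and 6.48-fold below ML cells (2.63 to 20.6). Pofut1, which places on the receptor the O-fucose that Fringe extends, was 2.36-fold higher in ML than in basal cells (1.41 to 4.16). Mib1, the ubiquitin ligase that lets ligands be drawn into the sending cell, was 3.97-fold higher in basal than in LP cells (1.83 to 9.83) and 3.20-fold higher than in ML cells (1.80 to 5.86). Numbl, a relative of the Notch antagonist Numb, was 7.92 CPM in basal cells (21 counts), 3.24 CPM in LP cells (7 counts) and 0.968 CPM in ML cells (4 counts). Numb itself, at 9.43, 10.7 and 15.5 CPM, did not differ by 2-fold in any comparison. Dtx3l, a Deltex ubiquitin ligase, was 2.68-fold higher in ML than in basal cells (1.37 to 5.74).

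Among the proteases that cut activated receptors, Adam10, Adam17, Psen2 and Aph1c had their highest level in ML cells. Adam10, which makes the first cut after ligand binding, was 22.2 CPM in basal cells (16.9 to 28.7), 26.4 in LP cells and 109.6 in ML cells (99.7 to 120.2). ML cells were 4.93-fold above basal (3.75 to 6.58) and 4.15-fold above LP cells (3.15 to 5.57). Adam17 was 2.21-fold (1.47 to 3.42) and 2.24-fold (1.44 to 3.61) higher in ML cells on the same comparisons. Of the gamma-secretase subunits, Psen2 was 6.41, 9.27 and 32.7 CPM in basal, LP and ML cells, and Aph1c 7.54, 4.17 and 26.4 CPM. Aph1a, its paralog, was lowest in basal cells, at 3.39 CPM (1.55 to 6.44) against 15.8 in LP (10.9 to 22.0) and 14.5 in ML cells (11.1 to 18.7).

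Of the nuclear partners, Rbpj was higher in basal cells than in either luminal class, and each Mastermind-like coactivator was 2-fold or more higher there against 1 of the luminal classes. Rbpj, the DNA-binding partner of the receptor, was 26.8 CPM in basal cells (20.9 to 33.8), 13.0 in LP cells (8.62 to 18.7) and 11.9 in ML cells (8.77 to 15.7), or 2.06-fold (1.32 to 3.32) and 2.26-fold (1.55 to 3.32) higher in basal cells. The coactivator Maml2 was 14.7, 10.7 and 2.90 CPM, 5.07-fold higher in basal (2.60 to 10.6) and 3.67-fold higher in LP than in ML cells (1.75 to 8.09). Maml1 was 8.30, 3.71 and 5.57 CPM and Maml3 12.4, 4.63 and 10.4 CPM, both 2-fold or more lower in LP than in basal cells, though the interval for Maml1 (0.960 to 5.81) includes no difference. Intervals for basal over ML cells also include none for Maml1 (0.792 to 2.80) and Maml3 (0.736 to 1.93), as does that for basal over LP cells for Maml2 (0.804 to 2.42).

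Other genes listed as targets went in different directions, and whether they answer to Notch in these cells was not tested. Nrarp, which encodes a feedback inhibitor of the receptor complex, was 52.8 CPM in basal cells (44.4 to 62.3), 44.5 in LP cells (36.0 to 54.3) and 10.9 in ML cells (7.94 to 14.6), so it followed neither Hes1 nor Hey1. Hes6 was 3.14-fold (2.26 to 4.42) and 4.07-fold (3.03 to 5.57) higher in LP and ML cells than in basal cells. Ccnd1, a cyclin of the G1 phase, was 4.34-fold (3.35 to 5.69) and 3.52-fold (2.75 to 4.57) higher in them. Gata3, a luminal transcription factor, was highest in ML cells at 242 CPM, against 119.5 in LP and 94.3 in basal cells. Myc was highest in basal cells at 730.4 CPM, with 307 in LP and 132 in ML cells, and Bhlhe40 was 2.49-fold higher in basal than in ML cells (2.31 to 2.69). These last genes answer to many signals other than Notch.

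**Figure D4:**
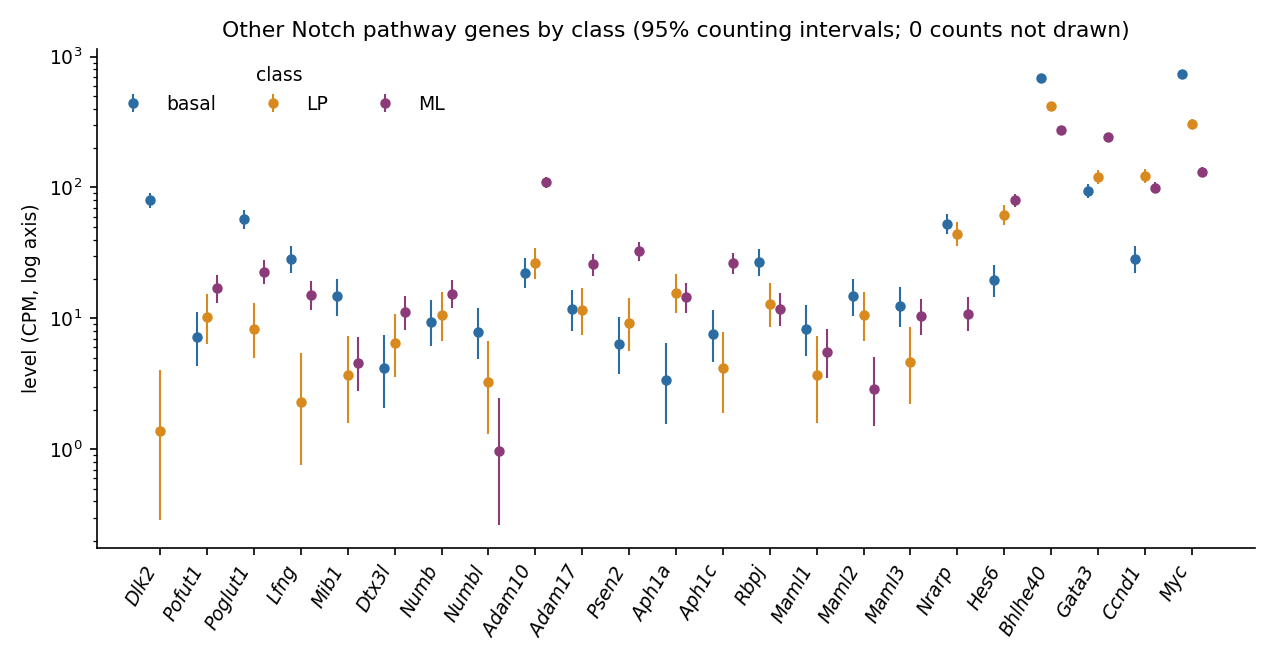
Levels of the other Notch pathway genes that were at least 2-fold apart in a comparison, with Numb, as CPM in basal, LP and ML cells on a log axis. Points are summed levels, lines are 95% counting intervals, and a class at 0 counts is not drawn; Adam10 stands at 109.6 CPM in ML cells and below 30 in the other classes, and Lfng is lowest in LP cells at 2.32 CPM.

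The genes whose profile over the 3 classes was nearest to a member's were found among about 4030 genes with 300 or more counts, by Euclidean distance between log2(CPM + 1) profiles centred on their means, and with 3 points per profile close matches are easily had. Nearest to Dll1 were Palld (509 CPM in basal cells, then 18.1 in LP and 2.90 in ML) and Gas1 (637, 14.4 and 4.11 CPM). Nearest to Hey1 were Muc15 (22.2, 369 and 32.2 CPM) and Lao1 (10.9, 174.7 and 15.5 CPM). For Notch1 they were Tnk2 and Hddc2, for Notch3 Hes6 and Gm26532, and for Hes1 Atp6v1b2 and Atp6v1e1.

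The sorted basal library gave a second view of the basal pattern. It held 4771 cells with 137 to 1946 counts (median 487), against 802 to 12967 (median 2425.5) in total epithelium, and of its cells 1757 passed the basal rule, 195 the LP rule, 7 the ML rule and 2811 none at this lower depth. Of the 9 members, 8 had 30 or more counts over the sorted library and the basal cells of total epithelium, and 5 of these were at least 2-fold higher in the sorted library: Notch1, Jag1, Jag2, Dll1 and Heyl. The background was wide, with 44.4% of 9269 genes 2-fold apart, 28.6% of all 9269 being higher in the sorted library and 15.8% lower, and a median log2 ratio of 0.46. Dll1 was 1252 CPM (1208 to 1297) in the sorted library and 402 CPM in basal cells, a ratio of 3.11 (2.90 to 3.34), and at 300 counts per cell it was found in 24.9% of 3889 sorted cells and 11.04% of 1280 basal cells. Jag1 was 21.3 against 7.92 CPM (2.69-fold, 1.59 to 4.69) and Jag2 14.5 against 6.79 CPM (2.13-fold, 1.18 to 3.99). Hes1 was lower, at 209 CPM (191 to 227) against 320, a ratio of 0.652 (0.584 to 0.728). The ratio for Dlk2 was 0.899, with an interval of 0.732 to 1.10 that includes no difference. Heyl was 21.7 against 5.28 CPM, but 0.790 of the basal level (0.223 to 2.32) when only sorted cells that passed the basal rule were taken. Notch1, at 2.36-fold over all sorted cells (1.22 to 4.80), was 1.58-fold (0.628 to 3.83) over those cells, an interval that includes no difference. Over the same cells Jag1 was 2.32-fold (1.22 to 4.43), Jag2 2.21-fold (1.09 to 4.51) and Dll1 3.22-fold (2.97 to 3.48) the level in unsorted basal cells. The share of all genes 2-fold apart was not calculated for those cells, and no ratio was centred on the median. Nothing is therefore read from how many members stayed at 2-fold or more. Library, depth and sort cannot be told apart in this comparison.

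**Figure D5:**
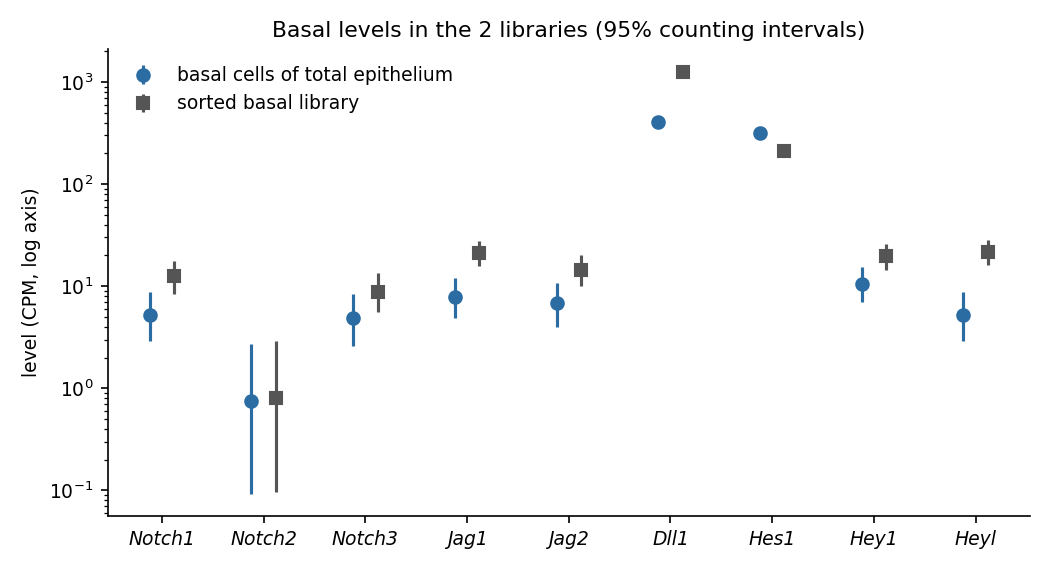
Level of each of the 9 genes in the basal cells of total epithelium (circles) and in the sorted basal library (squares), as CPM on a log axis with exact Poisson 95% counting intervals. Dll1 is higher in the sorted library (1252 against 402 CPM) and Hes1 lower (209 against 320 CPM).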

How the data were processed

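The authors sequenced 2 libraries and, per the labels, processed them with Cell Ranger 1.2.1 against mm10, while the study's methods name a later release. They deposited counts of unique molecules per gene and cell, not normalized. The depth was 9227651 counts in total epithelium and 2488704 in sorted basal cells. The members, gene lists and tests were chosen with earlier results of these data known. All 9 members were named, and of the other pathway genes those at least 2-fold apart with 30 or more counts, plus Rbpj, Maml2, Adam10 and Numb, and a further gene that is not reported here.

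From the deposited counts, sums per class were scaled to CPM with exact Poisson intervals, ratios were given exact conditional binomial (Clopper-Pearson) intervals, and shares exact binomial ones, in Python 3.11.15 with numpy 2.4.6, scipy 1.17.1, pandas 2.3.3 and matplotlib 3.10.9. Shares at 1000 counts are hypergeometric expectations. The scripts were tested on simulated data. A class at 0 was set to a floor of 3 counts, and the share that 0 allows is 3 over the number of cells, not the exact binomial limit. No p-value is given: cells are not replicates, and the study's test over cells was not used for that reason. Classes were set by thresholds on counts, and 16 and 14 cells lay within 2 counts below and above the basal threshold, 37 and 49 for ML, and 12 and 3 for the luminal keratins. No doublet caller was run. Cells passing both sums were set aside, and the deepest 5% were left out as an alternative. The libraries shared 28 cell barcodes. Other alternatives varied the class thresholds, the totals used for scaling, the count minimum and the fold.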

Additional observations from a re-analysis of the deposited data

How the results depend on the processing

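No member's ratio of 2-fold or more changed direction under the 10 alternative ways of forming classes, scaling or leaving out cells: over 18 ratios, 175 of 180 values stayed inside the main counting interval and 5 did not. The number of members at least 2-fold apart between basal and ML cells was 5, and 3 at a 3-fold threshold, where Jag1 and Hes1 no longer counted. Jag1, on 33 counts, fell under the count minimum with stricter class thresholds, without the deepest 5% of cells and without cells holding stromal RNA, and without LP cells that held 3 or more ML counts its 1 LP count was gone, so that the ratio of LP to ML rests on the floor of 3 counts and says nothing of its excess in ML cells. That alternative was chosen after seeing the data, as was leaving out stromal RNA other than Dcn. The Hes1 ratio of LP to ML (log2 0.04) ranged from -0.02 to 0.30, and the Hey1 ratio of basal to LP (log2 -4.18) from -5.13 to -4.03. Notch3 ranged more widely, from -2.83 to -1.16 for basal to LP (log2 -1.81) and from -3.25 to -1.70 for basal to ML (log2 -2.26). Without the deepest 5% of cells Hey1 was also 2-fold higher in ML than in basal cells, at log2 -1.34 for basal to ML (-0.68 over all cells). The Heyl, Notch3 and Notch1 ratios of sorted to unsorted basal cells were 0.790, 0.511 and 1.58 over sorted cells that passed the basal rule, and 4.11, 1.80 and 2.36 over all sorted cells. No paired analysis was possible because there was 1 library per group and none could be left out. The depth limits Notch2, Jag2 and Heyl most.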

Other observations

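The 97 cells of the total epithelium library that passed no class rule had Notch pathway RNA as well, beside markers of stromal cells. They held 149 Hes1 counts (931 CPM, interval 788 to 1094), 10 Notch3 counts (62.5 CPM, 29.98 to 115), 9 Heyl counts (56.3 CPM, 25.7 to 107), 7 counts each of Notch1 and Hey1 (43.8 CPM, 17.6 to 90.2), and 45 counts of the feedback inhibitor Nrarp (281 CPM, 205 to 376). Of the stromal markers, Col3a1 stood there at 2419 CPM, Fabp4 at 1206 CPM and Cdh5 at 87.5 CPM, and Ptprc, which encodes the CD45 antigen of leukocytes, at 0 counts. The Lin- gate was set to leave out cells with CD45 and endothelial cells with CD31. Whether endothelial cells passed it and are among the 97 was not tested. The median depth of these cells was 1184 counts, and which of them carried the Notch pathway counts was not tested.

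In the 3 classes the stromal markers other than Dcn were low, with highest levels of 16.2 CPM for Fabp4 in the basal class, 6.02 CPM for Pecam1 among LP cells and 69.7 CPM for Col3a1 among ML cells. Dcn was 1281 CPM in ML, 345 in basal and 76.4 in LP cells, with a count in 34.0% of ML cells. The 26 cells that passed both the basal and the ML sums held 11 Dll1 counts (88.4 CPM, 44.1 to 158) and 73 Hes1 counts (587 CPM, 460 to 738).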
